A study of Mus musculus with 18 samples.

Results

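The 38 genes described here encode the chaperones, enzymes and regulators through which a cell handles misfolded protein, amino acid shortage, heat and oxidants. They were taken by gene symbol from a table of 25279 genes, and all 38 were found and had enough counts to be tested, among 20267 tested genes in all. They fall into 15 genes of the endoplasmic reticulum (ER) and its unfolded protein response, 9 genes of the integrated stress response governed by ATF4, 8 cytosolic and mitochondrial heat-shock genes and 6 oxidative-stress genes of the NRF2 pathway. The bulk RNA came from mouse embryonic stem cells (ESCs) in which Oct1, a POU-domain regulator of transcription and the product of Pou2f1, carried a conditional knockout (cKO), and from parental ESCs without it. Both genotypes were put through a mesoderm-inducing culture on gelatin, and 3 libraries of each were made at day 0, day 3 and day 6, which gives 6 groups and 18 libraries. The labels do not say which agent removed Oct1, whether the knockout cells were 1 clone, or whether the replicate libraries were grown as separate cultures, so each p-value measures only the spread between these libraries.

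Misfolded protein in the ER releases the chaperone BiP, the product of Hspa5, from stress sensors, which switch on ER chaperones through the transcription factors ATF6 and XBP1 and slow protein synthesis while favouring translation of ATF4. ATF4 in turn drives genes for amino acid synthesis and import, and the same arm is engaged by amino acid shortage without any ER stress. Cytosolic chaperones are driven by heat-shock factor 1, and detoxifying and glutathione genes by NRF2, which is stabilised when its repressor KEAP1 is oxidised. Embryonic stem cells are known for abundant chaperones and high demand for serine and other amino acids.

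Promoter stretches are shown for members with an element of their own pathway before the RefSeq transcription start, since these elements are read from the sequence and not from the counts. By the GENCODE M21 gene bounds, which differ, the stretches of Hspa5, Asns, Hspd1 and Txnrd1 lie inside the gene. Windows of 300 bases, from 250 before to 50 after the start, were available from RefSeq (GRCm38.p6) for 31 of the 38 genes. Each motif was searched on both strands, in the letters given with it. The last 5 letters of the ER stress element also begin the reverse complement of the UPR element core. In every stretch, capitals mark the letters that the motif fixes, and the strand is that of the gene. The ER stress element, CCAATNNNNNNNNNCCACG, was present in 7 of the 13 ER genes with a window, in 0 genes of the other groups and in 0.137% of all 27025 genes with a window. The stretches lie at chr2:34772013-34772055 (plus strand) for Hspa5, chr8:84847063-84847105 (minus) for Calr, chr10:86705521-86705668 (minus) for Hsp90b1, chr11:50325788-50325830 (minus) for Canx, chr12:17266479-17266521 (plus) for Pdia6, chr14:118937815-118937857 (plus) for Dnajc3 and chr15:88819508-88819550 (plus) for Creld2.
Hspa5: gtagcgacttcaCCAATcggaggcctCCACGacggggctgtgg
Calr: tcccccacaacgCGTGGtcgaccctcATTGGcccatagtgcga
Hsp90b1: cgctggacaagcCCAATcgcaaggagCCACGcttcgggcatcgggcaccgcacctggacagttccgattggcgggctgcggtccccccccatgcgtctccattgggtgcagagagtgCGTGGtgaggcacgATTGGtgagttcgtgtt
Canx: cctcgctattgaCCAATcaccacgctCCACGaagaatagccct
Pdia6: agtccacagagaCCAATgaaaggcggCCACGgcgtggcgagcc
Dnajc3: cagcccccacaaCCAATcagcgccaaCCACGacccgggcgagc
Creld2: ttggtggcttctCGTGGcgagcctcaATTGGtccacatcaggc
Calr and Creld2 hold the element on the opposite strand, and Hsp90b1 holds it in both orientations.

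The C/EBP-ATF composite core, TGATGNAA, which ATF4 binds with a C/EBP partner, was present in 4 of the 9 ATF4 genes (Asns, Chac1, Trib3 and Slc7a11), in the ER gene Herpud1 and in 4.51% of all genes. The stretches shown lie at chr3:50443641-50443691 (minus strand) for Slc7a11, chr6:7693213-7693244 (minus) for Asns and chr2:119351037-119351068 (plus) for Chac1.
Slc7a11: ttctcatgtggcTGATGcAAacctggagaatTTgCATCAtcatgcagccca
Asns: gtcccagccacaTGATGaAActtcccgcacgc
Chac1: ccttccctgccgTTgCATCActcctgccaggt
A heat-shock element of 3 alternating units, GAANNTTCNNGAA, was present in 3 of the 5 heat-shock genes with a window (Hspd1, Hspe1 and Hsph1) and in 0.662% of all genes. Hspd1 and Hspe1 are transcribed away from each other and share a single stretch, chr1:55088047-55088088, shown on the strand of Hspd1.
Hspd1: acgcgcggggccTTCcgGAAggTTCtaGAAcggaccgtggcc
The antioxidant element core, TGACNNNGC, was present in 3 of the 4 NRF2 genes with a window (Srxn1, Gclm and Txnrd1), in 4 ER, 2 ATF4 and 2 heat-shock genes and in 14.0% of all genes. The stretches of Gclm and Txnrd1 lie at chr3:122245411-122245443 and chr10:82859102-82859134, both on the plus strand.
Gclm: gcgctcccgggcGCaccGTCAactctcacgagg
Txnrd1: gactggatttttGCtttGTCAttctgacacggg
The UPR element core, TGACGTGG, was found in 0 members and in 0.714% of all genes. A missing match says only that these letters are not in the window searched.

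Library totals ran from 13704958 to 26995420 counts. Levels below are in CPM, counts scaled to the size of the library after adjustment by its TMM normalisation factor. Pou2f1 lay at 62.2 to 95.4 CPM in the cKO libraries, against 123 to 142 CPM in the parental libraries, so knockout libraries still held reads of the gene. Summed pluripotency markers reached 8035 to 8925 CPM in cKO and 6909 to 7044 CPM in parental cells at day 0, and early mesoderm markers 64.4 to 124 CPM in cKO and 297 to 382 CPM in parental cells at day 3. The cKO day 6 library 2 stood apart from the others of its group, with a chi-square per degree of freedom of 93.9 and 85.6 against libraries 1 and 3, which differed from each other by 5.37. Values at day 6 are therefore given with and without it. The cKO day 0 libraries 1 and 2 were closer than any other pair, at 1.22, while every other pair was at 3.12 or more. Library 3 of that group lay at 10.8 and 10.5 from them. Their small excess over sampling noise (p = 1.16e-73, chi-square test over genes with at least 10 counts in the pair) cannot show whether they were separate cultures. They were kept as separate libraries, so the cKO day 0 tests may rest on fewer than 3 independent samples. Day 0 libraries carry another title prefix than those of days 3 and 6, so the change after day 0 and the prefix cannot be told apart, whereas cKO and parental libraries of a day share theirs. Because RNA is bulk, fewer cells of a type and less RNA per cell cannot be told apart in any result below.

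The first question was at which day of differentiation the stress genes differed between cKO and parental cells. They differed most widely at day 6, when 27 of the 38 rose in cKO libraries and 1 fell (edgeR quasi-likelihood test, Benjamini-Hochberg adjusted p under 0.05). Of all genes tested, 19.9% rose and 25.7% fell in that comparison, and the median log2 fold change was 0.39 for the 38 genes and -0.09 for all genes. Without cKO library 2, 27 rose and 0 fell, against 20.0% and 25.4% of all genes, and the median was 0.33. At day 3, 5 rose and 3 fell, against 6.32% and 9.39% of all genes, and the median was 0.07. At day 0, 10 rose and 9 fell, against 15.1% and 16.5% of all genes, and the median was -0.02.

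The spread of each gene was estimated over all 18 libraries, so cKO day 6 library 2 also touched the calls at the earlier days. Without it, 13 of the 38 genes rose and 13 fell at day 0, against 20.7% and 21.7% of all genes, and 13 rose and 6 fell at day 3, against 13.4% and 15.8%. The day 3 fold changes themselves moved little, with a median of 0.07 in both fits. Hspb1 and Nqo1, the members that library 2 changed most, are given in both fits below.

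**Figure D1:**
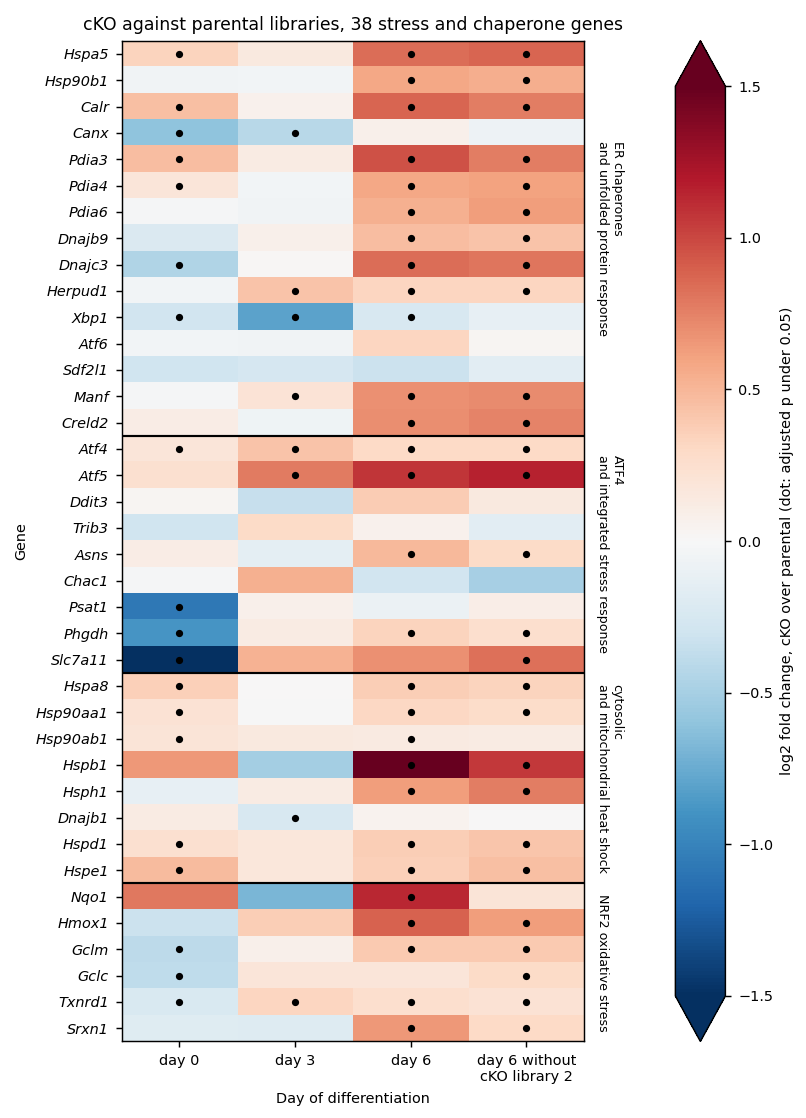
Log2 fold change of cKO over parental libraries for each of the 38 genes (rows, in 4 groups) at days 0, 3 and 6 and at day 6 without cKO library 2 (columns); black dots mark an adjusted p under 0.05, and the colour scale ends at 1.5 in each direction. At day 6, 27 rows are red with a dot with and without library 2, while day 0 holds 10 red and 9 blue rows with a dot.

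ER chaperones and folding enzymes were mostly higher in cKO libraries at day 6. Of the 15 ER genes, 11 rose and 1 fell in cKO libraries (median log2 fold change 0.58), against 19.9% and 25.7% of all genes. Without cKO library 2, 11 rose and 0 fell (median 0.60), against 20.0% and 25.4%. Summed over the 15 genes, cKO day 6 libraries held 5219, 5929 and 5369 CPM, against 3609, 3689 and 3522 CPM in parental libraries.

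Hspa5, the Hsp70 chaperone of the ER lumen, had 928, 849.6 and 943 CPM in cKO day 6 libraries, against 507, 519 and 500.0 CPM in parental ones. The groups did not overlap, and the log2 fold change was 0.83 ± 0.06 (SE, adjusted p = 3.72e-09), a level 1.78 times the parental one. Calr, the lectin chaperone calreticulin, had 892, 1119 and 937 CPM in cKO, against 529.9, 553 and 529 CPM in parental libraries. Library 2 was its highest, and the difference of 0.87 ± 0.07 (adjusted p = 4.94e-08) was 0.77 ± 0.06 without that library. Pdia3, the disulfide isomerase that works with calreticulin and calnexin, had 672, 968 and 703 CPM in cKO, against 400.4, 415 and 396 CPM in parental libraries. Every cKO library was above every parental one, with a difference of 0.95 ± 0.09 (adjusted p = 3.39e-07), and 0.77 ± 0.05 without library 2. Hsp90b1, the ER member of the Hsp90 family (GRP94), differed by 0.58 ± 0.05 (adjusted p = 1.42e-07), and a small part of its exons overlaps a gene on each strand. The disulfide isomerases Pdia4 and Pdia6 rose by 0.58 ± 0.06 and 0.54 ± 0.08.

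Dnajc3, the co-chaperone p58IPK that also restrains the kinase PERK, had 111, 119.6 and 109 CPM in cKO day 6 libraries, against 63.9, 61.8 and 63.8 CPM in parental ones. All cKO libraries were above all parental ones, with a difference of 0.84 ± 0.06 (adjusted p = 7.93e-09). Manf, a secreted ER-resident survival factor, had 137, 131 and 138 CPM in cKO and 82.2, 87.2 and 83.4 CPM in parental libraries, a difference of 0.69 ± 0.07 (adjusted p = 2.12e-07). Creld2, an ER protein induced by ER stress, rose by 0.69 ± 0.10, Dnajb9, a BiP co-chaperone, by 0.47 ± 0.09, and Herpud1, a component of ER-associated degradation, by 0.32 ± 0.09.

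The ER genes that did not rise at day 6 included both transcription factors of the response. Xbp1, whose mRNA is spliced by the sensor IRE1, had 68.1, 52.4 and 68.8 CPM in cKO and 73.2, 77.3 and 73.0 CPM in parental libraries. It fell by 0.24 ± 0.09 on the log2 scale (adjusted p = 0.0362), and the call was lost without library 2 (-0.12 ± 0.07, adjusted p = 0.139) and without parental library 1, 2 or 3 (adjusted p = 0.0671, 0.122 and 0.0586). The table holds gene totals, so spliced and unspliced Xbp1 were not measured apart. Atf6, the membrane-bound factor, had 44.0, 73.7 and 44.5 CPM in cKO and 43.6, 45.4 and 40.8 CPM in parental libraries, so library 2 alone stood out (0.32 ± 0.14, adjusted p = 0.0709, and 0.03 ± 0.08 without it). Sdf2l1, an ER protein that binds BiP co-chaperones, stayed below the test threshold at -0.32 ± 0.14 (adjusted p = 0.0688). Canx, the membrane-bound lectin chaperone calnexin, had 695, 950.4 and 720 CPM in cKO and 748, 763 and 731 CPM in parental libraries, and the groups overlapped (0.08 ± 0.08, adjusted p = 0.482).

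**Figure D2:**
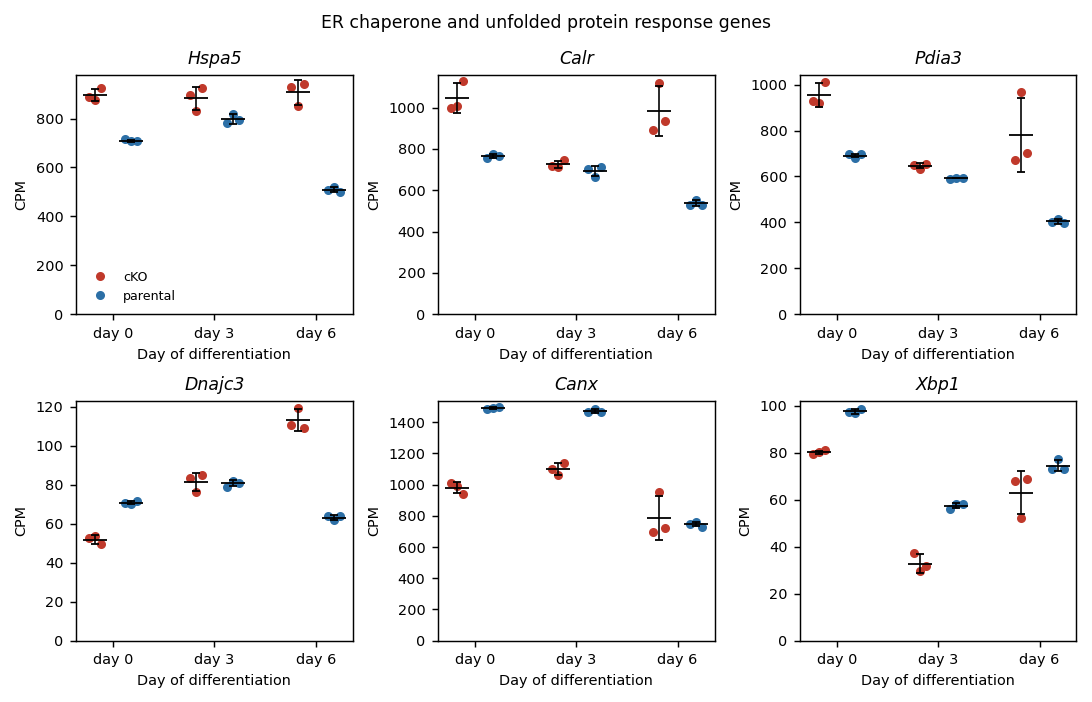
Levels in CPM of 6 ER genes in each library (points) by day of differentiation, with cKO in red left of parental in blue; bars show the mean and SD of 3 libraries. Hspa5, Calr, Pdia3 and Dnajc3 separate the genotypes at day 6, with every cKO library above every parental one, while Canx separates them at days 0 and 3 and Xbp1 at each day with cKO lower.

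At day 0 the ER genes were split, with 4 higher, 3 lower and a median of -0.04, which is 26.7% and 20.0% of the group against 15.1% and 16.5% of all genes. Without cKO day 6 library 2, 4 were higher and 5 lower, against 20.7% and 21.7% of all genes. Hspa5 had 889.7, 876 and 925 CPM in cKO and 715, 708 and 708 CPM in parental libraries, a difference of 0.34 ± 0.06 (adjusted p = 0.000139). Calr rose by 0.45 ± 0.07, Pdia3 by 0.47 ± 0.09 and Pdia4 by 0.18 ± 0.06 (adjusted p = 0.0197), the last a call lost under total-count scaling (0.17, adjusted p = 0.0547), without cKO library 1 (0.17, adjusted p = 0.0548) and without parental library 2 (0.16, adjusted p = 0.0824). Dnajc3 went the other way at day 0, at 52.8, 53.4 and 49.4 CPM in cKO and 70.7, 70.2 and 71.7 CPM in parental libraries (-0.45 ± 0.06, adjusted p = 1.82e-05). At day 3 only 4 ER genes were called, Herpud1 (0.43 ± 0.09) and Manf (0.20 ± 0.06) higher and Xbp1 (-0.80 ± 0.09) and Canx (-0.42 ± 0.08) lower. Of all genes, 6.32% were higher and 9.39% lower at that day. The Manf call at day 3 was lost under total-count scaling (adjusted p = 0.109), with no filter on low counts (adjusted p = 0.0766), without cKO library 1 (0.18, adjusted p = 0.137), without cKO library 3 (0.19, adjusted p = 0.124) and without parental library 2 (0.19, adjusted p = 0.129) or 3 (0.18, adjusted p = 0.138).

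Canx and Xbp1, the members on chromosome 11, were both lower in cKO libraries at days 0 and 3. Canx had 1010, 990.0 and 939.6 CPM in cKO day 0 libraries, against 1484, 1491 and 1495 CPM in parental ones. The difference was -0.60 ± 0.08 at day 0 (adjusted p = 2.13e-05). Xbp1 had 79.4, 80.2 and 81.0 CPM in cKO day 0 libraries, against 97.4, 96.9 and 98.7 CPM in parental ones. Its difference of -0.28 ± 0.09 passed (adjusted p = 0.0216), but the call was lost without parental library 1, 2 or 3, without cKO library 1 or 2, and with cKO libraries 1 and 2 summed (adjusted p between 0.0539 and 0.0726). Xbp1 had 37.2, 29.6 and 31.6 CPM in cKO day 3 libraries, against 56.2, 58.0 and 58.0 CPM in parental ones, and the difference was -0.80 ± 0.09 (adjusted p = 6.93e-06). The 921 chromosome 11 genes at 5 CPM or more had a median log2 fold change of -0.38 at day 0, -0.39 at day 3 and -0.49 at day 6, against 0.02, 0.03 and -0.03 for 10458 genes elsewhere. The part of this chromosome-wide difference in the values of Canx and Xbp1 was not tested.

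Among the integrated stress genes, the transcription factors Atf4 and Atf5 rose at days 3 and 6, and 3 amino acid genes fell at day 0. At day 0, 1 of the 9 rose and 3 fell (median -0.02), against 15.1% and 16.5% of all genes. At day 3, 2 rose and 0 fell (median 0.29), against 6.32% and 9.39%. Without cKO day 6 library 2, 2 rose and 3 fell at day 0, against 20.7% and 21.7%. In that fit 3 rose and 1 fell at day 3, against 13.4% and 15.8%, with Chac1 higher (0.54, adjusted p = 0.0115) and Asns lower (-0.15, adjusted p = 0.0342). At day 6, 4 of the 9 ATF4 genes rose and 0 fell (median 0.34), against 19.9% and 25.7% of all genes. Without cKO library 2, 5 rose and 0 fell (median 0.26), against 20.0% and 25.4%. Atf4 mRNA had 309, 293 and 289.9 CPM in cKO day 3 libraries, against 225, 213 and 227 CPM in parental ones. The groups did not overlap, and the difference was 0.42 ± 0.06 (adjusted p = 6.73e-05). It was 0.30 ± 0.06 at day 6 (adjusted p = 0.000582) and 0.18 ± 0.06 at day 0 (adjusted p = 0.0272), the day 0 call being lost under total-count scaling (0.17, adjusted p = 0.0553), without cKO library 3 (0.12, adjusted p = 0.116) and without parental library 1, 2 or 3 (adjusted p = 0.0827, 0.0664 and 0.0527). ATF4 is controlled mainly at translation, which these counts do not measure. Atf5, a related factor and ATF4 target, had 47.1, 37.9 and 44.6 CPM in cKO day 6 libraries, against 21.5, 20.1 and 19.9 CPM in parental ones. Its difference was 1.07 ± 0.11 (adjusted p = 4.42e-07), and 1.16 ± 0.09 without library 2, where the gene was lowest. At day 3 it rose by 0.78 ± 0.11 (adjusted p = 7.62e-05).

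Ddit3, Trib3 and Chac1, targets of ATF4 that are often read as signs of acute stress, were not called at day 6. Among 40 further ATF4 and integrated stress genes, 13 rose and 8 fell at day 6, against 19.9% and 25.7% of all genes. The rises included Sesn2 (0.77 ± 0.12, adjusted p = 4.55e-05) and Nars (0.47 ± 0.07, adjusted p = 2.5e-05), with cKO library 2 the highest for both. Ddit3, the pro-apoptotic factor CHOP, had 4.67, 6.95 and 4.58 CPM in cKO day 6 libraries, against 4.01, 4.60 and 3.76 CPM in parental ones. The groups overlapped, and the difference of 0.38 ± 0.19 did not pass (adjusted p = 0.103). Trib3, a pseudokinase that damps ATF4, differed by 0.07 ± 0.19 (adjusted p = 0.796) and Chac1, which breaks down glutathione, by -0.29 ± 0.26 (adjusted p = 0.384). All 3 lay under 7 CPM at day 6, where the standard errors are wide.

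Psat1, Phgdh and Slc7a11, but not Asns, had their largest genotype difference before differentiation. Psat1, an enzyme of serine synthesis, had 187, 181 and 192 CPM in cKO day 0 libraries, against 387, 391 and 397 CPM in parental ones. No library overlapped, and it fell by 1.07 ± 0.11 (adjusted p = 1.08e-06). Phgdh, the first enzyme of the same pathway, had 54.1, 57.1 and 65.1 CPM in cKO, against 105, 114 and 106 CPM in parental libraries, and fell by 0.88 ± 0.08 (adjusted p = 8.94e-08). Slc7a11, the cystine importer, had 0.299, 0.314 and 0.688 CPM in cKO, against 2.12, 1.74 and 2.41 CPM in parental libraries, and fell by 2.21 ± 0.37 (adjusted p = 0.000159) on counts that were the lowest of any member. Asns, asparagine synthetase, lay at 862, 846 and 902 CPM in cKO and 799, 801 and 811 CPM in parental libraries at day 0, a difference that did not pass (0.11 ± 0.10, adjusted p = 0.444). Of the Phgdh 50-base stretches, 59.5% are shared with other genes, so its reads may be divided among pseudogenes.

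At day 3 none of Psat1, Phgdh and Slc7a11 was called, and each fold change was above 0. Psat1 had 363, 342 and 366 CPM in cKO, against 338, 337 and 340.2 CPM in parental libraries (0.08 ± 0.11, adjusted p = 0.724). The change between day 0 and day 3 was larger in cKO than in parental cells by 1.15 ± 0.16 for Psat1 (adjusted p = 5.66e-05), by 1.01 ± 0.11 for Phgdh (adjusted p = 2.73e-06) and by 2.73 ± 0.46 for Slc7a11 (adjusted p = 0.000359). At day 6 Asns had 77.5, 114 and 79.7 CPM in cKO and 62.5, 63.2 and 67.5 CPM in parental libraries, and Phgdh 89.2, 103 and 86.8 CPM in cKO and 72.5, 73.7 and 74.7 CPM in parental libraries. Library 2 was the highest for both, and the differences were 0.49 ± 0.11 and 0.34 ± 0.07 with it and 0.29 ± 0.06 and 0.26 ± 0.06 without it, all called. Slc7a11 was called at day 6 without library 2 (0.83 ± 0.28, adjusted p = 0.0122) and missed the threshold with it (0.69 ± 0.29, adjusted p = 0.0576).

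**Figure D3:**
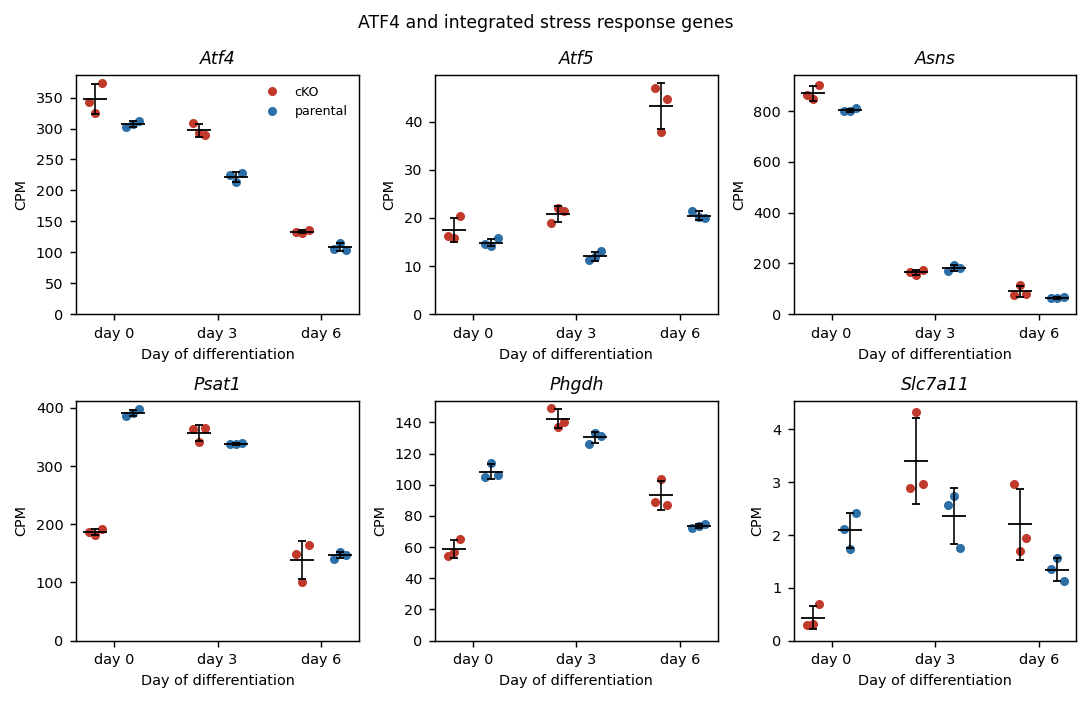
Levels in CPM of 6 integrated stress genes in each library (points) by day, with cKO in red left of parental in blue; bars show the mean and SD of 3 libraries. Psat1, Phgdh and Slc7a11 are lower in cKO at day 0 and not at day 3, Atf5 is higher in cKO at days 3 and 6, and Asns falls in both genotypes between day 0 and day 3.

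Most heat-shock genes were higher in cKO cells at day 0 and again at day 6. At day 0, 5 of the 8 rose and 0 fell (median 0.23), against 15.1% and 16.5% of all genes. Without cKO day 6 library 2, 6 rose and 1, Hsph1 (-0.13, adjusted p = 0.0334), fell at day 0, against 20.7% and 21.7%. At day 6, 7 rose and 0 fell (median 0.37), against 19.9% and 25.7%. Without cKO library 2, 6 rose and 0 fell at day 6 (median 0.37), against 20.0% and 25.4%. At day 3, 1 fell and 0 rose (median 0.07), against 9.39% and 6.32% of all genes. Without cKO day 6 library 2, 2 fell and 3 rose at day 3, against 15.8% and 13.4%. The counts of Hspa8, Hsp90aa1, Hspb1 and Hspd1 share 46.3% to 57.7% of their 50-base stretches with other genes, mostly pseudogenes, so their levels are uncertain.

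Hspa8, the constitutive cytosolic Hsp70, had 3772, 3826 and 4214 CPM in cKO day 0 libraries, against 3095, 3068 and 3071 CPM in parental ones. The groups did not overlap, with a difference of 0.36 ± 0.06 (adjusted p = 8.48e-05), nor did they at day 6, where it was 0.37 ± 0.06 (adjusted p = 3.64e-05). At day 3 it had 5679, 5594 and 5867 CPM in cKO and 5682, 5648 and 5694 CPM in parental libraries, a difference of 0.01 ± 0.06. Hsp90aa1, the inducible Hsp90, rose by 0.22 ± 0.05 at day 0 and 0.31 ± 0.05 at day 6. Hsp90ab1, the constitutive Hsp90, rose by 0.20 ± 0.05 at day 0 and by 0.14 ± 0.05 at day 6 (adjusted p = 0.0444), the day 6 call being lost without cKO library 2 (0.13 ± 0.06, adjusted p = 0.0676) or 3 (0.13, adjusted p = 0.0958) and without parental library 1, 2 or 3 (adjusted p = 0.0854, 0.0506 and 0.166), under total-count scaling (adjusted p = 0.424) and with the day 6 libraries alone (adjusted p = 0.057). Hspd1 and Hspe1, the chaperonin pair of mitochondria that share the promoter stretch shown above, rose together by 0.24 ± 0.06 and 0.48 ± 0.08 at day 0 and by 0.37 ± 0.06 and 0.36 ± 0.08 at day 6.

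Hsph1, an Hsp110 nucleotide exchange factor, had 236, 171 and 244 CPM in cKO day 6 libraries, against 141, 143 and 138 CPM in parental ones. Library 2 was the lowest of the cKO libraries here, and the difference of 0.63 ± 0.09 (adjusted p = 2.74e-05) was 0.77 ± 0.06 without it. Dnajb1, an Hsp40 co-chaperone and a classical target of heat-shock factor 1, lay at 48.0, 52.2 and 49.1 CPM in cKO and 46.9, 52.0 and 45.6 CPM in parental libraries. These overlapped (0.05 ± 0.07, adjusted p = 0.613). At day 3 it fell by 0.24 ± 0.07 (adjusted p = 0.0237), a call lost without cKO library 2 (-0.19, adjusted p = 0.116) or 3 (-0.23, adjusted p = 0.0749) and without parental library 1 (-0.21, adjusted p = 0.0917) or 2 (-0.24, adjusted p = 0.0644).

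Hspb1, a small heat-shock protein of epithelia and muscle, had the largest day 6 fold change of any member, and most of it came from library 2. It had 58.7, 353 and 61.7 CPM in cKO day 6 libraries, against 29.9, 30.1 and 25.9 CPM in parental ones. The difference was 2.46 ± 0.55 with library 2 (adjusted p = 0.00268) and 1.06 ± 0.11 without it (adjusted p = 4.81e-07). At day 0 it had 352, 336 and 457 CPM in cKO and 239, 251 and 238 CPM in parental libraries, and at day 3 23.9, 20.8 and 21.2 CPM in cKO and 29.2, 30.9 and 33.7 CPM in parental libraries. Neither difference was called in the fit of all libraries (0.65 ± 0.51, adjusted p = 0.382, and -0.51 ± 0.55, adjusted p = 0.62), though the groups did not overlap. In the fit without library 2 it was higher at day 0 (0.65 ± 0.09, adjusted p = 1.24e-05) and lower at day 3 (-0.51 ± 0.11, adjusted p = 0.00203).

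NRF2 genes differed mostly downwards at day 0 and upwards at day 6. At day 0, 3 of the 6 fell and 0 rose (median -0.27), against 16.5% and 15.1% of all genes. Without cKO day 6 library 2, 4 fell and 1, Nqo1, rose at day 0, against 21.7% and 20.7%. At day 3, 1 rose and 0 fell (median 0.13), against 6.32% and 9.39%. Without cKO day 6 library 2, 3 rose and 1 fell at day 3, against 13.4% and 15.8%. At day 6, 5 rose and 0 fell (median 0.52), against 19.9% and 25.7%. Without cKO library 2, 5 rose and 0 fell at day 6 (median 0.29), against 20.0% and 25.4%. Gclm, the modifier subunit of the enzyme that limits glutathione synthesis, had 84.7, 87.9 and 82.9 CPM in cKO day 0 libraries, against 115, 108 and 113 CPM in parental ones, and fell by 0.40 ± 0.07 (adjusted p = 0.000271). Its day 6 levels were 25.4, 26.4 and 26.1 CPM in cKO, against 18.04, 19.7 and 21.6 CPM in parental libraries, a difference of 0.40 ± 0.07 (adjusted p = 0.000286). No library overlapped at either day, in opposite directions.

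Gclc, the catalytic subunit, fell by 0.38 ± 0.08 at day 0 (adjusted p = 0.000751), and its rise at day 6 was called only without library 2 (0.28 ± 0.06, adjusted p = 0.000288, against 0.18 ± 0.08 and adjusted p = 0.065 with it). Txnrd1, thioredoxin reductase, had 279, 307 and 284 CPM in cKO day 3 libraries, against 222, 230.3 and 241 CPM in parental ones. In the fit of all libraries it was the member of this group called at each day, at -0.22 ± 0.06 at day 0, 0.33 ± 0.06 at day 3 and 0.25 ± 0.06 at day 6. In the fit without cKO day 6 library 2, Gclc was also called at day 3 (0.18, adjusted p = 0.00718), so that it was called at each day there. Hmox1, the haem-degrading enzyme, had 35.5, 58.0 and 37.2 CPM in cKO day 6 libraries, against 24.0, 24.4 and 22.1 CPM in parental ones. Every cKO library was above every parental one, and the difference was 0.89 ± 0.13 (adjusted p = 2.69e-05), and 0.62 ± 0.08 without library 2. At days 0 and 3 Hmox1 was not called in the fit of all libraries. Without cKO day 6 library 2 it was lower at day 0 (-0.33, adjusted p = 3.83e-05) and higher at day 3 (0.37, adjusted p = 1.58e-05).

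Nqo1, the quinone reductase often used as a marker of NRF2 activity, rested on library 2 at day 6. It had 2.59, 8.15 and 1.79 CPM in cKO, against 2.07, 1.93 and 1.69 CPM in parental libraries, which overlap apart from that library. The call at day 6 (1.13 ± 0.40, adjusted p = 0.0334) was lost without it (0.19 ± 0.19, adjusted p = 0.443), and without parental library 1, 2 or 3 (adjusted p = 0.0677, 0.0829 and 0.0844). At day 0 Nqo1 had 62.7, 70.6 and 68.1 CPM in cKO, against 38.6, 38.9 and 39.0 CPM in parental libraries, opposite in direction to Gclm and Gclc. That difference was 0.79 ± 0.30 in the fit of all libraries (adjusted p = 0.0602) and 0.79 ± 0.08 without library 2 (adjusted p = 5.17e-11). At day 3 it had 8.15, 8.12 and 6.52 CPM in cKO, against 12.98, 11.6 and 12.2 CPM in parental libraries. The groups did not overlap, and the difference was -0.69 ± 0.33 in the fit of all libraries (adjusted p = 0.194) and -0.68 ± 0.10 without library 2 (adjusted p = 9.33e-07). Srxn1, sulfiredoxin, had 16.2, 29.0 and 16.1 CPM in cKO day 6 libraries and 13.9, 13.6 and 11.3 CPM in parental ones, a difference of 0.65 ± 0.18 that was 0.30 ± 0.11 without library 2 (adjusted p = 0.0183).

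**Figure D4:**
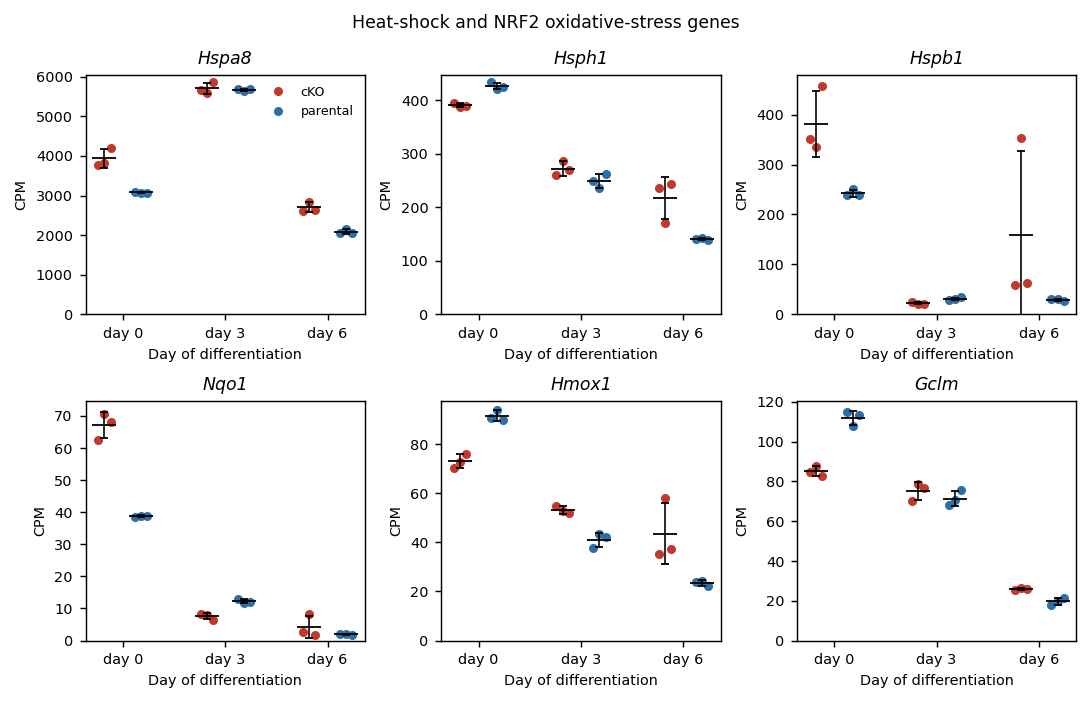
Levels in CPM of 3 heat-shock genes (Hspa8, Hsph1 and Hspb1) and 3 NRF2 genes (Nqo1, Hmox1 and Gclm) in each library (points) by day, with cKO in red left of parental in blue; bars show the mean and SD of 3 libraries. One cKO day 6 library lies at 353 CPM for Hspb1, while the other 2 lie at 58.7 and 61.7 CPM. The Hmox1 and Gclm points of cKO lie below the parental ones at day 0 (for Hmox1 not called in the fit of all libraries) and above them at day 6.

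The day 6 difference was next read library by library. Against the mean of the parental libraries, the median log2 difference of the 38 genes was 0.34 in cKO library 1, 0.44 in library 2 and 0.37 in library 3. For the ER genes it was 0.55, 0.57 and 0.66 in libraries 1, 2 and 3, and for the NRF2 genes 0.34, 0.79 and 0.29. Library 2 lay above both others for 22 of the 38 genes, below both for 14 and between them for 2. The ER medians thus lay close together in the 3 libraries, and the NRF2 median was highest in library 2.

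**Figure D5:**
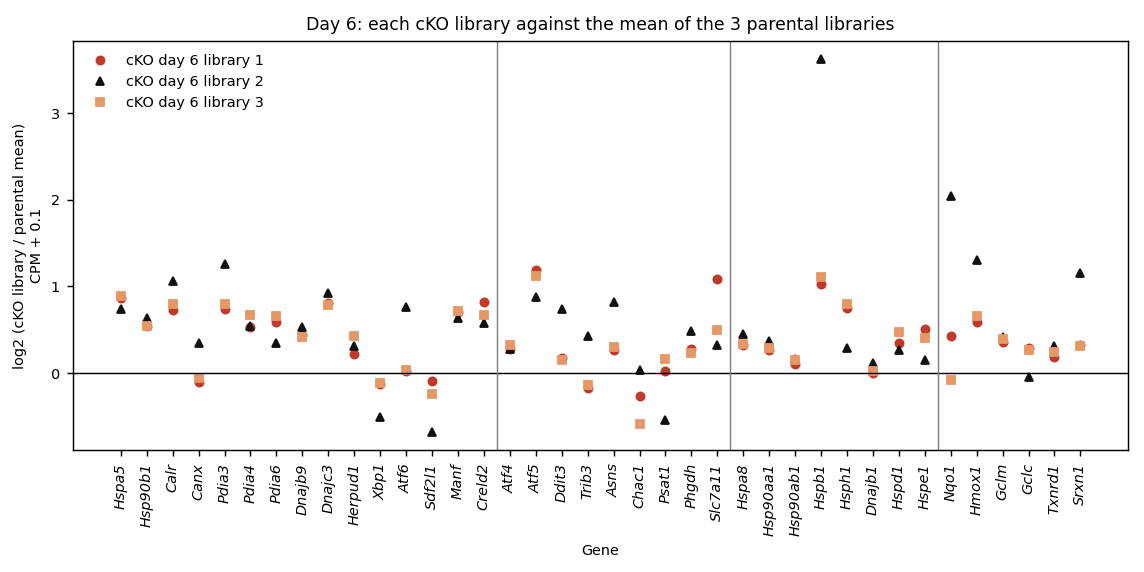
Log2 ratio of each cKO day 6 library to the mean of the 3 parental day 6 libraries (y axis, on CPM plus 0.1) for each of the 38 genes (x axis, in 4 groups separated by lines). Libraries 1 and 3 lie close together for most genes, and library 2 lies far above them for Hspb1 and Nqo1 and above them for Atf6, Ddit3, Hmox1 and Srxn1.

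Markers of other cell types moved with genotype at day 6 as well. Of all genes tested, 19.9% rose and 25.7% fell at that day. Summed epithelial markers lay at 1167, 5396 and 1183 CPM in cKO libraries 1, 2 and 3, against 436 to 480 CPM in parental libraries, and all 13 rose. Fibroblast and feeder markers lay at 4871 to 7013 CPM in cKO and 2775 to 3012 CPM in parental libraries, with 14 of 18 higher and 1 lower. The largest part of this sum was Acta2, at 1701, 3168 and 1704 CPM in cKO and 815, 904 and 796 CPM in parental libraries. None of the 18 was at 0 in all libraries of a genotype, though S100a4 was at 0 in parental libraries 2 and 3. Extraembryonic endoderm markers lay at 2126 to 3896 CPM in cKO and 1057 to 1109 CPM in parental libraries, with 10 of 19 tested higher and 1 lower. The largest part of this sum was Col4a1, at 559.5, 1351 and 559 CPM in cKO and 272.5, 280 and 266 CPM in parental libraries. Afp, Apoa1 and Amn were each under 1 CPM in every day 6 library. Trf lay lower in cKO, at 0.555, 0.184 and 0.472 CPM, against 1.23, 1.79 and 1.75 CPM in parental libraries. Hnf4a of this list was at 0 in every cKO library and at 0, 0.0676 and 0 CPM in the parental ones, so it did not separate the genotypes. Neural markers lay at 578 to 606 CPM in cKO and 937 to 1035 CPM in parental libraries, with 8 of 12 lower and 1 higher. Fibroblasts and visceral endoderm are known to secrete much protein, and the part of these cell types in the rise of the ER genes was not tested. At day 0 fibroblast and feeder markers were lower in cKO, at 722 to 745 CPM, against 1566 to 1666 CPM in parental libraries. Of these 18 markers, 10 were lower and 1 was higher at day 0, against 16.5% and 15.1% of all genes. Their part in the day 0 differences was not tested either.

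Across differentiation, the summed level of the ER genes differed little between day 3 and day 6 in cKO cells and was lower at day 6 in parental cells. Summed over the 15 genes, cKO libraries averaged 6227 ± 172 CPM at day 0, 5601 ± 220.2 CPM at day 3 and 5506 ± 374 CPM at day 6, against 6071 ± 17.2, 5861 ± 43.4 and 3606 ± 83.4 CPM in parental libraries (SD, n = 3 each). From day 3 to day 6, 6 of the 15 rose and 6 fell in cKO, while 1 rose and 11 fell in parental cells. Over the 38 members, 10 rose and 23 fell in cKO, against 31.3% and 34.8% of all genes, and 2 rose and 30 fell in parental cells, against 32.6% and 32.7%. The change from day 3 to day 6 was more positive in cKO than in parental cells for 22 members and more negative for 0, against 12.4% and 13.6% of all genes. Without cKO library 2 the counts were 25 and 1, against 14.9% and 16.5%. By group, 12 of 15 ER, 1 of 9 ATF4, 5 of 8 heat-shock and 4 of 6 NRF2 genes were called in that test, all in the positive direction.

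Hspa5 is an example of the ER pattern. It lay at 897 ± 25.4, 884 ± 47.3 and 907 ± 50.2 CPM at days 0, 3 and 6 in cKO cells, and at 710.0 ± 4.05, 799 ± 19.8 and 509 ± 9.69 CPM in parental cells (SD, n = 3 each). The change from day 3 to day 6 differed between the genotypes by 0.69 ± 0.08 (adjusted p = 7.83e-06). In the cKO series the rise of Pdia3 and Atf6 from day 3 to day 6 was called only with library 2, at 0.27 ± 0.09 and 0.42 ± 0.14 with it and 0.09 ± 0.05 (adjusted p = 0.136) and 0.13 ± 0.08 (adjusted p = 0.14) without it.

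From day 3 to day 6 most heat-shock and ATF4 genes fell in both genotypes, whereas the change from day 0 to day 3 was mixed. Between day 3 and day 6, 7 of the 8 heat-shock genes fell in cKO and 7 in parental cells, and of the 9 ATF4 genes 6 fell in cKO and 7 in parental cells. Of all genes, 34.8% fell in cKO and 32.7% in parental cells over these days. Between day 0 and day 3, 3 heat-shock genes rose and 5 fell in cKO, and 3 rose and 4 fell in parental cells. Of the ATF4 genes, 4 rose and 4 fell in cKO, and 2 rose and 5 fell in parental cells. Among all genes, 41.0% rose and 35.0% fell in cKO between day 0 and day 3, and 41.1% rose and 34.4% fell in parental cells. Hsp90ab1 and Asns are examples of genes that fell at each step. Hsp90ab1 lay at 9189 ± 285, 2738 ± 88.8 and 1969 ± 45.5 CPM at days 0, 3 and 6 in cKO cells and at 8027 ± 90.3, 2468 ± 110 and 1790.0 ± 56.0 CPM in parental cells (SD, n = 3 each). Asns lay at 869.8 ± 29.0, 164 ± 10.2 and 90.4 ± 20.6 CPM in cKO cells and at 803 ± 6.43, 182 ± 11.5 and 64.4 ± 2.70 CPM in parental cells (SD, n = 3 each). From day 0 to day 3, 11 members rose and 22 fell in cKO, against 41.0% and 35.0% of all genes, and 10 rose and 21 fell in parental cells, against 41.1% and 34.4%. The change from day 0 to day 3 was more positive in cKO for 10 members and more negative for 6, against 9.47% and 9.12% of all genes, and for 15 and 12 without cKO day 6 library 2, against 15.0% and 16.2%. Of the ATF4 genes 4 were more positive and 0 more negative in that test, and of the heat-shock genes 0 were more positive and 3 more negative. Without cKO day 6 library 2 the counts were 6 and 1 for the ATF4 genes and 1 and 5 for the heat-shock genes.

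Per kilobase of exon, the levels of the members spanned orders of magnitude. Among the ER genes at day 6, Calr, Pdia3, Hsp90b1 and Hspa5 led in cKO cells, at 341, 249, 244 and 214 CPM per kilobase, and Calr, Hsp90b1, Canx and Pdia3 led in parental cells, at 187, 164, 159 and 129 CPM per kilobase. The sensors and regulators Atf6 and Ddit3 lay at 5.86 and 3.15 CPM per kilobase in cKO and at 4.69 and 2.41 in parental cells at day 6. The highest of all members was Hsp90ab1 at day 0, at 3064 CPM per kilobase in cKO and 2676 in parental cells, and the lowest was Slc7a11 at day 0, at 0.0312 in cKO and 0.150 in parental cells.

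Other genes of the same pathways were counted next, beside 19.9% higher and 25.7% lower among all genes at day 6 and 15.1% higher and 16.5% lower at day 0. Without cKO library 2, the day 6 shares were 20.0% and 25.4%. Of 37 further ER folding and degradation genes, 18 rose and 4 fell at day 6, with a median of 0.26, and 3 rose and 13 fell at day 0. Without cKO library 2, 18 rose and 5 fell at day 6 (median 0.22). At day 6 Txndc5, a disulfide isomerase, rose by 0.51 and Sec61a1, a subunit of the ER translocon, by 0.59. P4hb, another disulfide isomerase and a chromosome 11 gene, differed by 0.13 without a call. Of 40 further ATF4 and integrated stress genes, 13 rose and 8 fell at day 6, with a median of 0.03, and 2 rose and 20 fell at day 0. The day 6 counts were 12 and 8 without cKO library 2, and the median changed sign to -0.08. The day 0 falls included Mthfd2, a mitochondrial folate enzyme, at -0.97, and Pycr1, of proline synthesis, at -1.54, the second on chromosome 11. Nupr1, a stress-induced chromatin protein, rose by 1.77 at day 6 from low levels. It had 3.79, 5.99 and 3.59 CPM in cKO and 1.01, 1.285 and 1.69 CPM in parental libraries. At day 3, 9 of the 40 rose and 4 fell, against 6.32% and 9.39% of all genes. The arginine importer Slc7a3 rose by 1.18 and Eif2ak2 fell by 0.90 at that day.

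Of 39 further heat-shock genes, 18 rose and 7 fell at day 6, with a median of 0.20, and 24 rose and 7 fell without cKO library 2. At day 0, 6 rose and 5 fell. At day 6 Dnajb6, an Hsp40 chaperone, rose by 0.80 and Cct3, a subunit of the cytosolic chaperonin, differed by 0.09 without a call. Of 41 further NRF2 and antioxidant genes, 18 rose and 1 fell at day 6, with a median of 0.14, and 18 rose and 4 fell without cKO library 2. At day 0, 10 rose and 7 fell, with a median of 0.09, so the median of this list was above 0 where that of the 6 NRF2 members was below it. At day 6 Nfe2l2, which encodes NRF2 itself, rose by 1.46, Me1, malic enzyme, by 1.58 and Prdx6, a peroxiredoxin, by 0.64, while Prdx2 differed by 0.07 without a call. Library 2 was the highest cKO day 6 library for Dnajb6, Nfe2l2, Me1 and Prdx6, as for Sec61a1 and Nupr1 above. Nfe2l2, for example, had 80.4, 117 and 75.7 CPM in cKO, against 32.5, 32.7 and 34.4 CPM in parental libraries. Fold changes without library 2 are not given for these genes. These lists, like the members, were chosen with earlier results known.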

How the data were processed

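The authors deposited a table of raw counts, with 1 whole number per gene and library and no normalization. Per the submitters' processing notes, Novoalign (no version), DESeq2 1.10.0 and the builds mm10 and GRCm38 were used. Which counting program, annotation and strand setting were used was not given in the sources used here. Of the 25279 identifiers, 25234 are in GENCODE M21 (GRCm38), the source of positions and exon lengths.

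Genes passing filterByExpr on the 6 groups, 20267 in all, were normalised by TMM. One mean per group was fitted to all 18 libraries (12 residual degrees of freedom, biological coefficient of variation 13.5%) with edgeR 4.0.16 (robust quasi-likelihood, limma 3.58.1, R 4.3.3). Genes were called at a Benjamini-Hochberg adjusted p under 0.05 over all tested genes, and fold changes are given ± SE. Contrasts were genotype at each day, the changes between successive days, and their differences between genotypes. The settings varied were the scaling (RLE factors or total counts), the filter on low counts (none, or at least 1 CPM in 3 libraries), the tool (DESeq2 1.42.0) and the libraries used (those of the contrast alone, or all but 1). Summing cKO day 0 libraries 1 and 2 was added after seeing the data. The fits were tested on simulated data. Tables and figures were made in Python 3.11.15 with pandas 2.3.3 and matplotlib 3.10.9, and checks used scipy 1.17.1 and numpy 2.4.6.

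Library totals of 13704958 to 26995420 counts limit precision for members such as Slc7a11, which had between 4 and 73 counts per library. The members, their 4 groups, the further pathway lists and the marker lists were chosen with earlier results of these data known. Genes outside the 38 were named by rule: Pou2f1, and, in each pathway list and day, the 3 called genes of smallest adjusted p at most and the 2 most expressed uncalled ones. Marker genes were named after their values were seen. Sequence shared between genes is the percent of 50-base stretches, taken every 25 bases, found in another gene. Protein sequences were not used here.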

Additional observations from a re-analysis of the deposited data

Results flagged for a closer look

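The genotype effect itself changed between days for several members, by the test of the difference between the time changes of cKO and parental cells (edgeR, adjusted p under 0.05 over all genes). Values are log2 differences, cKO change minus parental change.

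Between day 0 and day 3, amino acid and glutathione genes changed more positively in cKO cells. The difference was 2.73 for Slc7a11, 1.15 for Psat1, 1.01 for Phgdh and 0.54 for Atf5 among the ATF4 genes, and 0.70 for Hmox1, 0.57 for Gclc, 0.55 for Txnrd1 and 0.47 for Gclm among the NRF2 genes. It was 0.47 for both Dnajc3 and Herpud1 among the ER genes. It was negative for Nqo1 (-1.48), Xbp1 (-0.52), Calr (-0.39), Dnajb1 (-0.36), Hspa8 (-0.35) and Hsp90aa1 (-0.22). The Nqo1 call was lost without any 1 of the 12 libraries of days 0 and 3, with no filter on low counts and with cKO day 0 libraries 1 and 2 summed (adjusted p between 0.051 and 0.078). The Hsp90aa1 call was lost without any 1 of these libraries other than cKO day 0 library 3 or cKO day 3 library 3 (adjusted p between 0.0581 and 0.127), with no filter and with the summed libraries. The Atf5 call was lost in 7 such fits (cKO day 0 libraries 1 and 2, cKO day 3 libraries 2 and 3, parental day 0 library 3 and parental day 3 libraries 1 and 2; adjusted p between 0.0527 and 0.0648) and with the summed libraries. The Herpud1 call was lost in 4 (cKO day 0 library 2, cKO day 3 library 1, parental day 0 library 1 and parental day 3 library 2; adjusted p between 0.0535 and 0.0683) and the Dnajb1 call in 1 (parental day 0 library 1, adjusted p = 0.051). Day 0 libraries carry another title prefix than day 3 libraries, in both genotypes alike.

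Between day 3 and day 6, every member that passed changed more positively in cKO cells. Among the ER genes the difference was 0.83 for Pdia3, 0.82 for Dnajc3, 0.81 for Calr, 0.76 for Creld2, 0.69 for Hspa5, 0.62 for Hsp90b1 and for Pdia4, 0.59 for Pdia6, 0.56 for Xbp1, 0.50 for Canx, 0.48 for Manf and 0.40 for Dnajb9. It was 0.63 for Asns. Among the heat-shock genes it was 2.97 for Hspb1, 0.50 for Hsph1, 0.36 for Hspa8, 0.31 for Hsp90aa1 and 0.28 for Dnajb1. Among the NRF2 genes it was 1.81 for Nqo1, 0.84 for Srxn1, 0.52 for Hmox1 and 0.32 for Gclm. Without cKO day 6 library 2 these remained called, at 1.57 for Hspb1, 0.88 for Nqo1, 0.51 for Srxn1, 0.26 for Hmox1 and 0.43 for Asns, the genes that library moved most. Other libraries and settings ended several of these calls. The Hmox1 call was lost in 8 fits that left out 1 library (any cKO day 3 library, parental day 3 library 2 or 3, or any parental day 6 library; adjusted p between 0.0621 and 0.0919) and with the libraries of days 3 and 6 alone. The Dnajb9 call was lost in 7 (cKO day 3 libraries 1 and 2, parental day 3 libraries 1 and 2 and each parental day 6 library; adjusted p between 0.051 and 0.0925), and the Dnajb1 call in 6 (cKO day 3 libraries 2 and 3, parental day 3 libraries 1 and 2 and parental day 6 libraries 1 and 3; adjusted p between 0.0646 and 0.103). The Gclm call was lost in 4 (cKO day 3 library 1, parental day 3 library 3 and parental day 6 libraries 1 and 2; adjusted p between 0.0571 and 0.0974) and the Srxn1 call in 2 (cKO day 3 library 1 and parental day 6 library 3; adjusted p = 0.0585 and 0.0516). Total-count scaling also ended the calls of Dnajb9, Dnajb1 and Gclm.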

How the results depend on the processing

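Day 6 counts of members higher in cKO ran from 23 to 30 over the alternatives, against 27. At day 0, 14 members were lower with the contrast libraries alone. At day 3 the members higher, 5 in the fit of all libraries, numbered 9 with RLE factors, 8 with the 1 CPM filter, 10 with DESeq2 and 13 with the contrast libraries alone, and 4 to 13 with 1 library left out. The members lower at day 3 numbered 6 with the contrast libraries alone and 2 to 6 with 1 library left out. With the contrast libraries alone 2859 of all genes were higher and 3015 lower at day 3, and 2861 were lower at day 6. With 1 library left out, all genes higher at day 3 ran from 840 to 2784 and all genes lower from 1357 to 3284, the highest values without cKO day 6 library 2. The members lower at day 6, 1 in the fit of all libraries, numbered 0 with RLE factors, no filter, DESeq2 or the contrast libraries alone, 2 with total-count scaling and 0 to 2 with 1 library left out. In the genotype difference of the day 0 to 3 change, members lower numbered 12 with the contrast libraries alone and 3 to 12 with 1 library left out, and in that of the day 3 to 6 change 0 to 1. Members higher at day 3 against day 0 in parental cells numbered 6 without the filter, where Hsp90b1 turned to -0.14 in cKO and -0.14 in parental cells and Pdia4 to -0.00294 in parental cells, and no other called value changed sign. Sign changes between uncalled values were not counted. The cause of these shifts was not tested. Total-count scaling moved the median of all genes from day 3 to day 6 by 0.12 in cKO and 0.17 in parental cells, against member medians of -0.23 in cKO and -0.62 in parental cells under it. DESeq2 gave no adjusted p for Hspb1. No paired analysis was possible because the labels carry no replicate numbers. Depth limits the genes under 10 CPM.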
